A study of Rattus norvegicus with 18 samples.

Results

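The comparison set 12 libraries from treated obese rats against 6 libraries from rats given water, which is all 18 libraries of a liver RNA sequencing series. The treated libraries were those of obese rats on orlistat (PC, the positive control) and of obese rats fed plantain at a low (LD), medium (MD) or high (HD) dose, with 3 libraries each. The water libraries were 3 from obese rats (OC, obese control) and 3 from healthy rats (NC, normal control). All rats were male and 18 weeks old, and the dose amounts are not given in the labels. The question was which genes followed treatment and not obesity. It was asked of the 11945 genes, of 33657 in the table, with at least 1 FPKM (fragments per kilobase of gene, scaled for sequencing depth) in at least 3 libraries. Every treated library is from an obese rat, so no treated library shares the health state of NC, and no treated group of healthy rats was analysed here. The labels do not say whether the 3 libraries of a group came from separate animals. Each p-value therefore measures the spread between libraries, which may be technical.

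The liver is made mostly of hepatocytes, which make plasma proteins, bile acids and lipids, and its blood flows through sinusoids lined by a specialised endothelium. These endothelial cells take up waste molecules from blood through scavenger receptors, while Kupffer cells, the resident macrophages, lie on them. Orlistat is a drug that blocks lipases in the gut. The labels do not say which plant or preparation the plantain was.

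Recovered reads came to between 16.6 and 23.9 M per treated library and between 19.2 and 26.2 M per water library, where the NC libraries were the deepest at 25.5 M or more. Albumin, the main secreted hepatocyte protein, took 10.5 to 12.1% of reads in treated libraries and 11.8 to 12.5% in water libraries. On the first 3 principal components the libraries of each group lay together, apart from the other groups. Replicates differed by more than counting noise, with 11.5 to 21.7% of genes past it in pairs of the same group, so none was a copy of another.

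Treated and water libraries differed at 5629 of 11945 genes, or 47.1%, in limma's test with Benjamini-Hochberg adjusted p of at most 0.05. Of these, 2701 genes were higher in treated libraries (22.6%) and 2928 were lower (24.5%). At 3670 of the 5629 genes, or 65.2%, the obese control also differed from the normal control, as it did at 55.1% of all genes tested, and at 1661 the treated mean lay between the means of the 2 water groups. The test takes its error from libraries within groups. A fit that takes the 6 group means as the units called 0 genes (limma; 1359 genes had an unadjusted p under 0.05), and a fit of 12 against 6 libraries with no group term called 1173 higher and 1287 lower. With the values rescaled to TPM, 66.8% of the calls were higher in treated libraries, against 48.0% in the deposited scale.

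A stricter rule picked out genes at which the treated libraries stood apart from both water groups. They are called genes set by treatment here, which only names the rule. Whether treatment caused the difference was not tested. The treated mean had to differ from OC and from NC in the same direction at the same threshold, all 12 treated libraries had to lie beyond all 6 water libraries, and the difference between OC and NC had to be under 0.5 times the treatment difference. It held for 403 genes (3.37% of those tested), 199 of them higher in treated libraries (1.67%) and 204 lower (1.71%). In these genes the lack of overlap and the low adjusted p-values follow from the rule. Without the LD libraries it held for 315 higher and 341 lower genes, and with an obesity limit of 0.25 times for 104 higher and 129 lower. The median size was 0.38 on the log2(FPKM + 1) scale for the genes that rose and 0.36 for those that fell. A log2 difference of 1 was passed by 2 genes that rose, Ces2e and Oit3, and by 6 that fell. These are differences on the log2(FPKM + 1) scale throughout, which understates the change of genes with low values. The set genes were also longer than the genes at large, with a median length of 3101 bases for those that rose and 2619 for those that fell, against 2104 bases over all genes tested, and the part of gene length in the result was not tested.

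**Figure D1:**
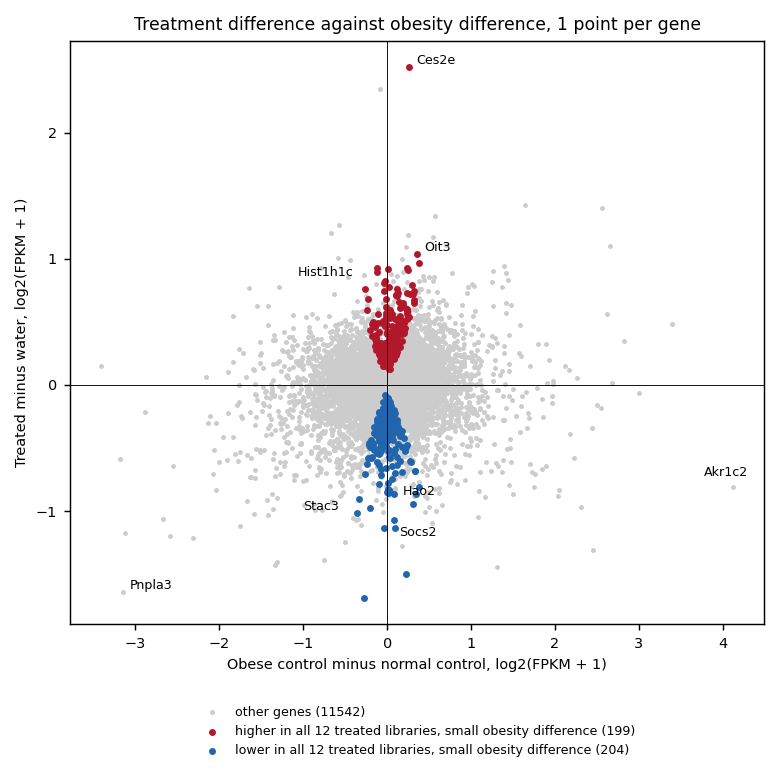
Each point is 1 of 11945 genes, with the obese control minus the normal control on the x axis and the treated minus the water libraries on the y axis, both as differences of log2(FPKM + 1). The 199 genes in red and 204 in blue met the rule for genes set by treatment and lie close to the vertical line, while Akr1c2 and Pnpla3 show genes with a large obesity difference.

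Just inside the obesity limit were Slc39a1, RGD1564171, Ddx39b and Scamp5, with an obesity difference of 0.494 to 0.499 times the treatment difference. Just outside were Gusb, Scpep1, Dll4 and Dnase1l3, at 0.500025 to 0.503 times. The limit left out 95 genes that were higher in all treated libraries and 76 that were lower in all of them.

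Ces2e, a carboxylesterase gene whose family hydrolyses ester bonds in lipids and drugs, had the largest rise. Its level was 3.15, 6.33 and 11.95 FPKM (lowest, median and highest) in the 12 treated libraries, against 0.0969, 0.279 and 0.480 FPKM in the 6 water libraries. Treated and water libraries did not overlap, as the rule requires. Within the treated libraries MD stood highest at 10.9 to 11.95 FPKM and HD lowest at 3.15 to 3.40 FPKM. The log2 difference was 2.52 ± 0.04 (standard error; limma adjusted p = 8.5e-16). The gene lies on chromosome 19 from 85606 to 100424 (ENSRNOG00000011635, build not given in the sources used here), and reads of near-identical carboxylesterase copies could be split with it. The other 7 tested carboxylesterase and related ester-cleaving genes held 1 that rose, Ces2g (0.10), and 2 that fell, Ces1d (-0.38) and Aadac (-0.13). Over all genes tested 22.6% were higher and 24.5% lower, so these counts do not stand out. In a fit with no group term neither Ces1d (limma adjusted p = 0.064) nor Aadac (limma adjusted p = 0.070) was called. Ces1d spanned 102 to 171 FPKM in treated libraries and 136 to 242 FPKM in water libraries, so its arms overlapped.

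Hist1h1c, which encodes a linker histone that packs DNA, was also among the 10 largest rises of protein coding set genes with a symbol. It had 107, 132 and 142 FPKM in treated libraries, against 61.8, 69.7 and 73.6 FPKM in water libraries. The means were 117 ± 9.96 FPKM in PC, 131 ± 5.85 FPKM in LD, 132 ± 4.86 FPKM in MD and 137 ± 3.82 FPKM in HD, against 66.0 ± 3.77 FPKM in OC and 71.9 ± 1.63 FPKM in NC (SD, n = 3). The arms did not overlap, as the rule requires, and PC was the lowest treated group. Its log2 difference was 0.90 ± 0.03 (limma adjusted p = 7.4e-12). Fos, an immediate early transcription factor gene, had 3.96, 4.93 and 7.83 FPKM in treated libraries and 2.25, 2.69 and 3.14 FPKM in water libraries (0.76 ± 0.05, limma adjusted p = 3.3e-09).

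Genes of the liver sinusoidal endothelium rose together. All 13 tested markers of these cells were higher in treated libraries, where 22.6% of all genes were. Their median difference was 0.76, beside -0.01 over all genes tested. The list was chosen with earlier results of these data known, so its count is not independent of them. At 12 of the 13 all 12 treated libraries lay above all 6 water libraries, where 2.46% of all genes did so (2.34% lay below and 4.81% on either side), and 9 met the rule for genes set by treatment. These 9 were Oit3, Fcgr2b, Kdr, Stab2, Lyve1, Tek, Flt4, Ehd3 and Stab1. They are scavenger and uptake receptors (Stab1, Stab2, Fcgr2b), the hyaluronan receptor Lyve1, receptors for vascular growth factors (Kdr, Flt4, Tek), the recycling endosome gene Ehd3 and the secreted protein gene Oit3.

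Stab2, the receptor that clears hyaluronan from blood, had 3.68, 3.92 and 4.80 FPKM in treated libraries, against 1.63, 1.68 and 1.80 FPKM in water libraries. The OC and NC libraries overlapped at 1.63 to 1.80 FPKM and 1.63 to 1.72 FPKM, so the obesity difference was 0.01 ± 0.04, while the treatment difference was 0.92 ± 0.02 (limma adjusted p = 1.3e-13). Lyve1 behaved in the same way, with 17.3, 20.3 and 22.5 FPKM in treated libraries against 10.3, 10.8 and 11.3 FPKM in water libraries (0.82 ± 0.03). Tek, the angiopoietin receptor, had 3.36, 3.95 and 4.77 FPKM in treated libraries and 1.75, 1.89 and 2.12 FPKM in water libraries (0.78 ± 0.03). These 3 were the members with no call between OC and NC.

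The other 10 members were also higher in OC than in NC, as were 26.7% of all genes tested. Oit3 had 12.8, 14.3 and 17.3 FPKM in treated libraries, 6.65 to 8.11 FPKM in OC and 5.21 to 5.96 FPKM in NC (1.04 ± 0.04). Fcgr2b, the inhibitory Fc receptor, had 21.6, 23.6 and 27.5 FPKM in treated libraries, 13.3 to 14.2 FPKM in OC and 9.46 to 10.8 FPKM in NC (0.97 ± 0.03). For Kdr, the main receptor for vascular endothelial growth factor, the values were 9.80, 12.01 and 13.8 FPKM in treated libraries, 6.03 to 6.65 FPKM in OC and 5.14 to 5.26 FPKM in NC (0.92 ± 0.02). In each of these genes the treated libraries lay above OC by more than OC lay above NC. Cdh5, Eng and Gpr182 were higher in every treated library too, but their obesity difference passed the limit. Clec4g, a lectin of these cells, was the exception, with 16.6 to 24.3 FPKM in treated libraries, 21.0 to 23.7 FPKM in OC and 11.9 to 13.3 FPKM in NC, and it did not pass the test against OC (-0.08, limma adjusted p = 0.18).

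Endothelial genes outside the list stood among the largest rises as well. They were named by the size of their rise, so they are no separate support. Ptprb, an endothelial receptor phosphatase, had 4.14, 5.07 and 6.38 FPKM in treated libraries and 2.00, 2.19 and 2.48 FPKM in water libraries (0.93 ± 0.04). Mrc1, the mannose receptor of sinusoidal endothelium and macrophages, had 11.8, 13.4 and 15.2 FPKM in treated libraries and 5.84, 6.42 and 7.55 FPKM in water libraries (0.91 ± 0.03). Adgrf5, an adhesion receptor, rose by 0.81 ± 0.02. Tie1 (0.73) and Flt1 (0.60), receptors of blood vessels, also met the rule and were chosen after their values were seen.

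The summed level of the 13 endothelial genes was 190.8 to 193.7 FPKM in PC, 167.8 to 171.0 FPKM in LD, 166.5 to 173.3 FPKM in MD and 202.9 to 206.5 FPKM in HD, against 120.7 to 121.5 FPKM in OC and 93.5 to 95.8 FPKM in NC. The order from low to high was NC, OC, then LD and MD, which overlapped, then PC and HD. None of the 13 was at 0 in all libraries. In bulk liver, more cells of a type and more RNA per cell cannot be told apart. The summed level of the hepatocyte markers was 83492, 93322 and 98598 FPKM in treated libraries and 89063, 98051 and 103885 FPKM in water libraries, so the arms overlapped, and its part in the endothelial result was not tested. In the fit on 6 group means the endothelial count was 0 of 13, and the smallest adjusted p among the genes described here was 0.11 (limma). In the fit with no group term 12 of the 13 were called, all but Clec4g (limma adjusted p = 0.10).

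**Figure D2:**
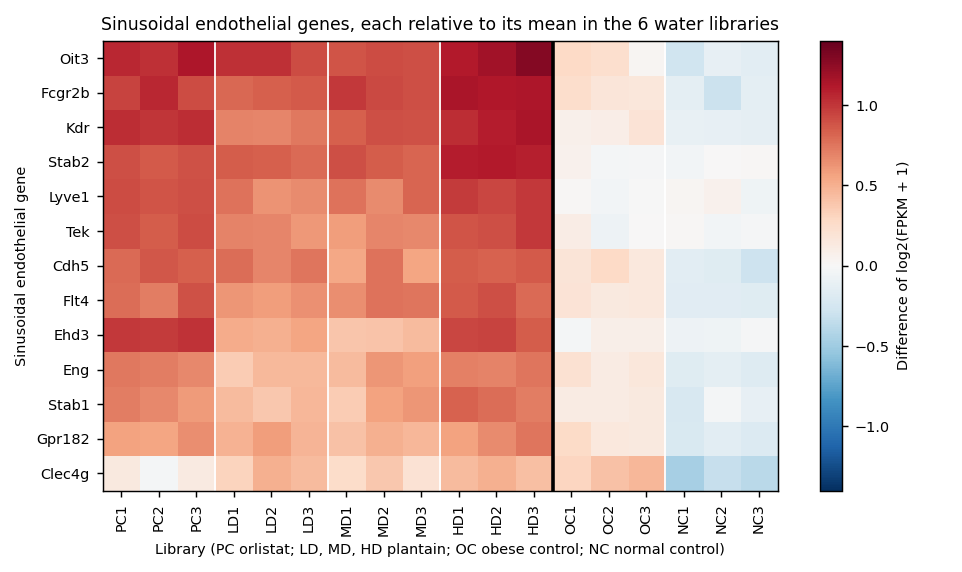
The heat map shows each of 13 sinusoidal endothelial genes (down the page) in each of 18 libraries (across), as the difference of log2(FPKM + 1) from the gene's mean in the 6 water libraries. The 12 treated libraries left of the black line are above 0 at 12 genes, while Clec4g overlaps with OC.

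Among the 204 genes that fell, Socs2 and Stac3 led the protein coding genes with a symbol. Socs2, a suppressor of cytokine signalling that limits growth hormone action, had 6.36 to 7.68 FPKM in PC, 12.8 to 14.6 FPKM in LD, 6.23 to 7.43 FPKM in MD and 19.3 to 23.0 FPKM in HD, against 24.7 to 25.5 FPKM in OC and 25.2 to 26.8 FPKM in NC. Every treated library was below every water library, as the rule requires. HD came close to OC, while PC and MD were far from it. The difference was -1.14 ± 0.05 (limma adjusted p = 1.5e-11).

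Stac3, known as an adaptor of the calcium channel in skeletal muscle, had 92.9 to 94.4 FPKM in PC, 37.9 to 39.7 FPKM in LD, 63.6 to 67.6 FPKM in MD and 48.9 to 50.4 FPKM in HD, against 103 to 109 FPKM in OC and 134 to 139 FPKM in NC. Here orlistat stayed nearest to the obese control and the low dose was farthest from it. The difference was -1.02 ± 0.02 (limma adjusted p = 1.0e-15).

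Hao2, a peroxisomal oxidase of hydroxy acids, overlapped between the water groups and was lower in all treatments. It had 105, 144 and 160.5 FPKM in treated libraries, 237 to 245 FPKM in OC and 237 to 241 FPKM in NC, a difference of -0.83 ± 0.02 (limma adjusted p = 9.3e-15). Slc17a9, which loads nucleotides into vesicles, had 6.73, 8.07 and 9.31 FPKM in treated libraries and 13.8, 14.3 and 15.2 FPKM in water libraries (-0.79 ± 0.04). The treated groups lay close together in this gene, with means between 7.51 FPKM in PC and 8.86 FPKM in LD.

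Sec23b, a coat protein gene of vesicles leaving the endoplasmic reticulum, had 9.47, 10.1 and 12.9 FPKM in treated libraries and 16.1, 17.3 and 18.1 FPKM in water libraries (-0.67 ± 0.03). Cavin3, a gene of the plasma membrane pits called caveolae, had 23.3 to 34.0 FPKM in treated libraries, 48.0 to 51.8 FPKM in OC and 38.5 to 40.1 FPKM in NC (-0.68 ± 0.02). Aurkaip1, a mitochondrial ribosome gene, had 24.7 to 36.5 FPKM in treated libraries and 44.2 to 49.1 FPKM in water libraries (-0.64 ± 0.02). The 10 largest falls were taken among protein coding set genes with a symbol, with LOC, RGD, Gm, clone and Mir names left out. The others of these were Gkn3 (-0.86), the protease gene Prss53 (-0.71) and the lipocalin gene Lcn12 (-0.66). Gkn3, a gastrokine gene, had 6 to 37 reads per treated library and 57 to 71 per water library.

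Further members of the gene lists met the rule for lower genes. They were Abcc2 (-0.52), which exports conjugated bilirubin into bile, Pygl (-0.49), the liver glycogen phosphorylase, the insulin receptor substrate gene Irs1 (-0.17) and Ugdh (-0.38), which makes the sugar donor for glucuronidation. Shmt2 (-0.30), of mitochondrial one-carbon metabolism, Ccnd1 (-0.63), a cyclin of the early cell cycle, the proteasome gene Psmc3 (-0.14) and Foxa1 (-0.57), a transcription factor of hepatocytes, did so as well. On the higher side stood C5 (0.45), a complement gene, Gstp1 (0.43), a glutathione transferase, and Nags (0.19), whose product switches on the urea cycle. C5 had 151, 169.6 and 177 FPKM in treated libraries and 117, 121 and 126 FPKM in water libraries.

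**Figure D3:**
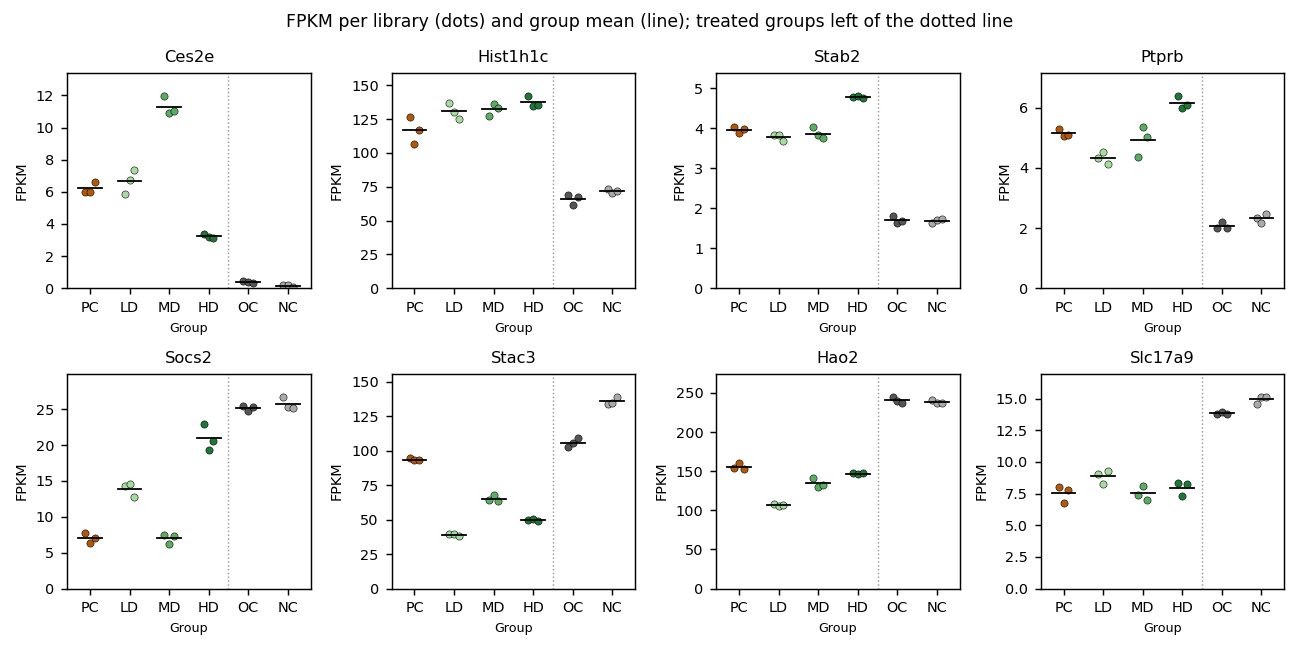
FPKM of 8 genes in each library (dots) and the group mean (line), with the treated groups PC, LD, MD and HD left of the dotted line and OC and NC right of it. Treated and water libraries do not overlap in any of the 8, as the rule by which they were chosen requires. Ces2e, Socs2 and Stac3 differ between treatments, and Slc17a9 and Hist1h1c less so.

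The treatments were not alike in the size of these changes. Of the 403 set genes, 253 (62.8%) differed among the 4 treated groups in limma's F-test, where 47.2% of all genes tested did, and 150 did not pass it. The rule favours genes with little spread within groups, and the F-test uses that same spread. The higher share in the set can therefore follow from the choice of genes, and its source was not tested. Mean plantain differed from orlistat at 113 of the 403, 51 higher and 62 lower. This share is close to that of all genes, where 15.1% were higher and 13.6% lower, 28.6% together. Socs2 (0.78 ± 0.06), Foxa1 (0.39 ± 0.06) and Gapdh (0.38 ± 0.02), a glycolytic gene, were farthest above orlistat in the mean of the plantain groups. For Socs2 this held in LD and HD, while MD at 6.23 to 7.43 FPKM overlapped with PC at 6.36 to 7.68 FPKM. Gapdh had 307 to 315 FPKM in MD and 235 to 238 FPKM in PC, against 373 to 393 FPKM in water libraries. Stac3 (-0.88 ± 0.02), Ehd3 (-0.38 ± 0.03) and Sgk1 (-0.37 ± 0.05), a kinase gene induced by glucocorticoids, were farthest below orlistat. Ehd3 had 23.0 to 25.9 FPKM in LD and MD and 32.1 to 34.4 FPKM in HD, beside 35.1 to 36.1 FPKM in PC and 16.5 to 18.5 FPKM in water libraries.

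LOC103690108, on the list of interferon response and antigen presentation genes, was raised in some treated groups alone. It had 4.86 to 6.24 FPKM in PC, 10.5 to 12.1 FPKM in MD and 7.26 to 9.44 FPKM in HD. In LD it was at 0 to 0.0779 FPKM, like OC, where all 3 libraries were at 0, and NC at 0 to 0.144 FPKM. With LD and the water libraries at or near 0, no fold is given.

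Genes of the Mir290 cluster fell in treated libraries. The cluster holds 7 microRNA hairpin genes of 71 to 108 bases on chromosome 1 from 64536623 to 64538785, and it was chosen after its values were seen. MicroRNAs pair with messenger RNAs mainly through their seed, bases 2 to 8. The mature forms below (RefSeq, GRCr8) are shown because the first 3 share 1 seed, while each of the others shown has a seed of its own. Capitals mark the seed.

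rno-miR-290: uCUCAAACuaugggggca
rno-miR-292-5p: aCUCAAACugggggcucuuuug
rno-miR-293-5p: aCUCAAACugugugacacuuu
rno-miR-295-5p: aCUCAAAUguggggcacacuucu
rno-miR-294: cUCAAAAUggaggcccuaucu
rno-miR-291a-3p: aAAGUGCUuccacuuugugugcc
rno-miR-291b: aAAGUGCAuccauuuuguuagu

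All 7 hairpin genes were called lower, where 24.5% of all genes were. Of the 7, 5 met the rule for genes set by treatment, where 1.71% of all genes did so as lower genes. Of the 107 microRNA genes tested, 8 were lower genes of the set, these 5 among them. The 7 hairpins lie within 2163 bases, so they may not be independent of each other. Mir293 had 21.4, 34.2 and 42.7 FPKM in treated libraries, against 57.7, 77.1 and 91.6 FPKM in water libraries (-1.13 ± 0.10, limma adjusted p = 2.5e-07). Behind these values stood 32 to 71 reads per treated library and 106 to 157 per water library. Mir290 had 45.7, 58.9 and 72.3 FPKM in treated libraries and 82.7, 88.2 and 107 FPKM in water libraries (-0.61 ± 0.06). The differences of Mir292 (-0.95), Mir294 (-0.87) and Mir295-1 (-1.07) were of similar size. Mir291a (-0.86) and Mir291b (-1.09) fell too, but each had a treated library above the lowest NC library.

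The libraries were made from total RNA, per the labels, and no small RNA library was analysed here, so mature microRNAs were not measured. Nlrp12, an innate immune sensor gene on the plus strand that ends at 64534912 in the file, has a RefSeq span in GRCr8 that contains all 7 hairpins. Whether reads were counted by strand is unknown here, so reads of the hairpins and of Nlrp12 transcripts cannot be told apart. Nlrp12 itself had 21.4 to 29.1 FPKM in treated libraries, 32.3 to 34.6 FPKM in OC and 22.2 to 23.5 FPKM in NC (-0.17 ± 0.02), so its arms overlapped. The obesity difference of Nlrp12 was 0.55. Among the hairpins it was 0.62 in Mir291a, 0.53 in Mir291b, 0.30 in Mir292, 0.16 in Mir290, 0.09 in Mir293 and Mir294 and 0.08 in Mir295-1, and the last 4 were not called. Gm25994 (-0.84), Mir5125 (-0.85) and Mir3557 (-1.50) were the other microRNA genes in the set, the last resting on 0 to 4 reads per treated library and 6 to 11 per water library.

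**Figure D4:**
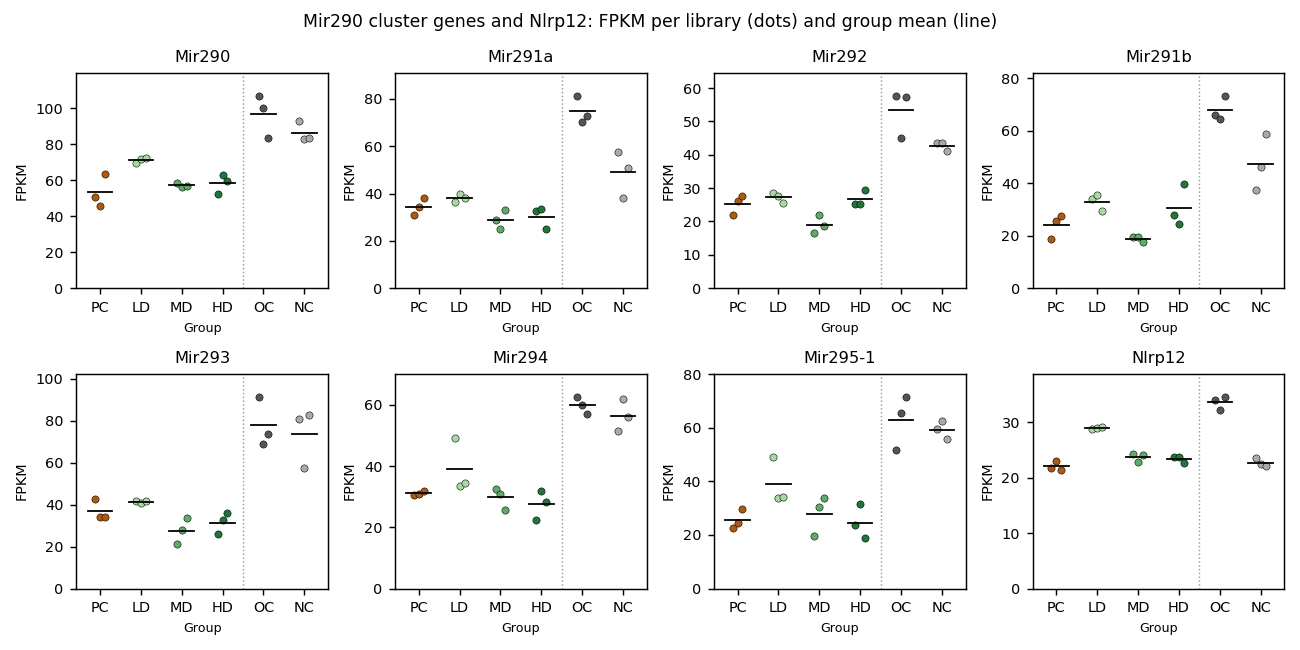
FPKM of the 7 Mir290 cluster genes and Nlrp12 in each library (dots) and the group mean (line), treated groups left of the dotted line. The hairpin genes are lower in the treated groups than in both water groups, while Nlrp12 is highest in OC and similar in PC, MD, HD and NC.

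Endoplasmic reticulum chaperones and secretion genes were lower in treated libraries, and by more against OC than against NC. These genes fold secreted proteins and carry them into and out of the reticulum, and some carry a known stress response element in the promoter. Of 37 tested, 34 were lower in the pooled comparison and 0 higher (median -0.23), and 25 were higher in OC than in NC. Of all genes, 24.5% were lower and 22.6% higher in the pooled comparison, and 26.7% were higher in OC than in NC. The counts against each control are again of the 37. Against OC 31 were lower and 3 higher with a median of -0.35, where 25% of all genes were lower and 26.8% higher. Against NC 22 were lower and 3 higher with a median of -0.14, where 27.5% of all genes were lower and 23.3% higher. Canx, Derl3 and Cnpy2 were not called, and with no group term the pooled count was 22 lower.

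Hspa5, the main chaperone of the reticulum, had 184, 201 and 221 FPKM in treated libraries, 389 to 390.3 FPKM in OC and 223 to 225 FPKM in NC. Treated libraries thus lay below both water groups, yet the obesity difference (0.80) was larger than the treatment difference (-0.55 ± 0.01), and Hspa5 is not in the set. Creld2, a stress-induced folding gene, had 12.7, 15.02 and 20.5 FPKM in treated libraries, 51.4 to 52.7 FPKM in OC and 13.7 to 16.1 FPKM in NC, a difference of 0.06 from NC that did not pass the test (limma adjusted p = 0.40). Hyou1, a chaperone gene, had 21.1 to 28.5 FPKM in treated libraries, 63.4 to 66.8 FPKM in OC and 29.1 to 31.0 FPKM in NC (-0.84 ± 0.02).

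Only Ssr3 (-0.47), Derl2 (-0.42) and Sel1l (-0.17), genes of translocation and of degradation of misfolded proteins, met the rule for genes set by treatment. Xbp1, Edem1 and Herpud1, of the stress pathway of the reticulum, went another way. They were higher in treated libraries than in OC (0.14, 0.44 and 0.30) and lower than in NC (-1.04, -0.70 and -0.40). Txndc11, a thioredoxin-like gene of the reticulum chosen after its values were seen, had 12.4 to 16.1 FPKM in treated libraries and 18.9 to 19.3 FPKM in water libraries (-0.44 ± 0.02).

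The element is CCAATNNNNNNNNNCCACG, searched on both strands in windows of 250 bases before to 50 after each gene's start (RefSeq, GRCr8). It was found in 9 of the 32 promoters of the list that the table holds (28.1%), beside 22 of 33469 promoters in all (0.0657%). The element is already known from genes of this kind, so its share in the list says nothing about treatment. The 9 were those of Hspa5, Hsp90b1, Calr, Canx, Dnajc3, Creld2, Derl3, Xbp1 and Ero1b, of which Canx and Derl3 were not called. The windows of 3 members are shown, with the element in capitals.

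Hspa5, chr3:38452766-38453065, plus strand: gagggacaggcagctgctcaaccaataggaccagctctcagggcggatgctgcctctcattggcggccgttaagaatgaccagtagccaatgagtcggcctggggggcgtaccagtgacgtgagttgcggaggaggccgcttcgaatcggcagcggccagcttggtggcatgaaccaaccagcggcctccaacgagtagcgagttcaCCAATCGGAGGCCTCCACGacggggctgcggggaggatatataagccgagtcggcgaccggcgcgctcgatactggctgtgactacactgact
Hsp90b1, chr7:23012244-23012543, minus strand: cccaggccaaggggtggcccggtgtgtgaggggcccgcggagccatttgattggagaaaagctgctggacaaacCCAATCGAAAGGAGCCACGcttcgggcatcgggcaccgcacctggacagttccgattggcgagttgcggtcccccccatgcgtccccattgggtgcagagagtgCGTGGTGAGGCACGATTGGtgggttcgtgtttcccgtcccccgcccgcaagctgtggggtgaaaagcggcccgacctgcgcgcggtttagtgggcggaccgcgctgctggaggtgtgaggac
Creld2, chr7:121789134-121789433, plus strand: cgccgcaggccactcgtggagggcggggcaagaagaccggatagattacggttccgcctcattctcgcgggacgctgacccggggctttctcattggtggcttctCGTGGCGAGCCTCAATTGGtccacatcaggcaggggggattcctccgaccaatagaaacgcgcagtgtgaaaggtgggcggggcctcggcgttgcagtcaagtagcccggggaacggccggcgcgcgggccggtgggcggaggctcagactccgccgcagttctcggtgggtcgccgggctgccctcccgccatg

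Hsp90b1 holds the element in both orientations, and in Creld2 it stands on the reverse strand. Hsp90b1 differed by -0.22 in the pooled comparison, with -0.54 against OC and 0.10 against NC. None of the 10 sinusoidal endothelial promoters in the table held the element, which says little because it is rare over all promoters (0.0657%). Another motif, CNGGAAG of the ETS factors, was in 4 of these 10 (40%), in 14 of the 32 reticulum promoters (43.8%) and in 30.8% of all promoters.

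Cholesterol synthesis and uptake was also lower in the pooled comparison, with treated libraries nearer to OC than to NC. Of 25 genes, 21 were lower in the pooled comparison (median -0.30) and 1 was higher, but against OC 18 were higher and 4 lower (median 0.25), and against NC all 25 were lower (median -0.72). Of all genes tested, 22.6% were higher and 24.5% lower in the pooled comparison, 26.8% higher and 25% lower against OC, and 27.5% lower against NC. Cyp51, a sterol demethylase, had 29.5, 32.7 and 37.5 FPKM in treated libraries, 29.9 to 30.4 FPKM in OC and 89.7 to 94.2 FPKM in NC. Its difference from OC was 0.11 and from NC -1.46. None of the 25 met the rule for genes set by treatment, and with no group term 8 were called lower.

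Fatty acid and triglyceride synthesis had 15 of 20 genes lower and 5 higher (median -0.40), with 8 lower and 8 higher against OC and 13 lower and 6 higher against NC. Over all genes tested 24.5% were lower and 22.6% higher, with 25% and 26.8% against OC and 27.5% and 23.3% against NC. Acly, which makes acetyl-CoA for lipid synthesis, had 15.1 to 21.7 FPKM in treated libraries, 16.6 to 17.5 FPKM in OC and 107 to 108 FPKM in NC. Scd, the stearoyl-CoA desaturase, differed among treatments, with 81.7 to 84.5 FPKM in PC, 107 to 111 FPKM in LD, 269 to 275 FPKM in MD and 167 to 175 FPKM in HD, against 243 to 245 FPKM in OC and 615 to 621 FPKM in NC. With no group term 7 of the 20 genes were called lower. In MD Scd was above OC, while PC, LD and HD were below it.

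Bile acid synthesis and transport had 11 genes higher and 8 lower of 20, where 22.6% of all genes were higher and 24.5% lower. Cyp7a1, which sets the pace of making bile acids from cholesterol, was higher in every treated library, with 66.0 to 66.6 FPKM in PC, 46.0 to 48.3 FPKM in LD, 39.5 to 43.6 FPKM in MD and 43.2 to 45.1 FPKM in HD, against 18.8 to 19.1 FPKM in OC and 33.2 to 34.2 FPKM in NC. The obesity difference of -0.79 is large beside the treatment difference of 0.93 ± 0.02, so it is not in the set, though treated libraries passed both water groups. Nrg4, a secreted growth factor gene, had 3.71, 6.35 and 9.28 FPKM in treated libraries, 0.794 to 1.21 FPKM in OC and 19.0 to 21.9 FPKM in NC. Its treated mean lay between the water groups, and the pooled difference of 0.15 did not pass (limma adjusted p = 0.083), although a pseudocount of 0.1 (0.42), TPM (0.29) or voom (0.48) gave calls. Akr1c2, an aldo-keto reductase gene whose reads could be split with close relatives, had 7.88 to 21.5 FPKM in treated libraries, 101 to 105 FPKM in OC and 4.42 to 5.35 FPKM in NC.

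The remaining pathway lists are given by their counts, beside the pooled background of 22.6% of all genes higher and 24.5% lower. Against OC 26.8% of all genes were higher and 25% lower, and against NC 23.3% were higher and 27.5% lower. Cytosolic ribosomal proteins had 26 of 32 lower and 0 higher (median -0.17), with 27 lower and 1 higher against OC and 15 lower and 2 higher against NC. With plantain 28 of the 32 were higher than with orlistat and 0 were lower, where 15.1% of all genes were higher and 13.6% lower. The proteasome had 23 of 31 lower and 0 higher (median -0.12; 15 lower in TPM), with 27 lower against OC and 11 lower and 1 higher against NC. The integrated stress response had 12 of 17 lower and 0 higher (median -0.13), with 9 lower and 1 higher against each control.

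Glucose production and glycogen had 17 of 22 lower and 3 higher (median -0.17), and G6pc (-0.95), the last enzyme of glucose release, differed most. Against OC the list had 10 lower and 7 higher (median -0.03), and against NC 15 lower and 2 higher (median -0.33). Growth hormone signalling and sex-type genes had 11 of 19 lower and 2 higher (median -0.12), with Cish (-0.53) beside Socs2. Here 12 were lower and 5 higher against OC, and 9 lower and 6 higher against NC (median -0.01). Acute phase proteins had 14 of 20 higher and 3 lower (median 0.13), with 8 higher and 8 lower against OC and 16 higher and 3 lower against NC. Fatty acid oxidation had 18 of 28 higher and 5 lower (median 0.11), with 13 higher and 9 lower against OC (median 0.03) and 18 higher and 8 lower against NC. With no group term the counts were 4 ribosomal, 13 proteasome, 2 integrated stress, 7 glucose and 2 growth hormone genes lower, and 7 acute phase and 8 fatty acid oxidation genes higher.

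Among the lists not yet described, calls were made in both directions for lipoproteins (13 higher and 8 lower of 26), amino acid breakdown (13 and 8 of 24), cytochrome P450 (8 and 8 of 22), NRF2 genes (7 and 7 of 18) and heat shock (6 and 7 of 19). The interferon response (10 and 6 of 26), clock (5 and 7 of 17), cell cycle (6 and 3 of 13), nuclear oxidative phosphorylation (3 and 11 of 31) and immediate early genes (7 and 3 of 15) were divided too. The median of the P450, NRF2, clock and nuclear oxidative phosphorylation lists changed sign with the scaling used, so no direction is given for them.

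**Figure D5:**
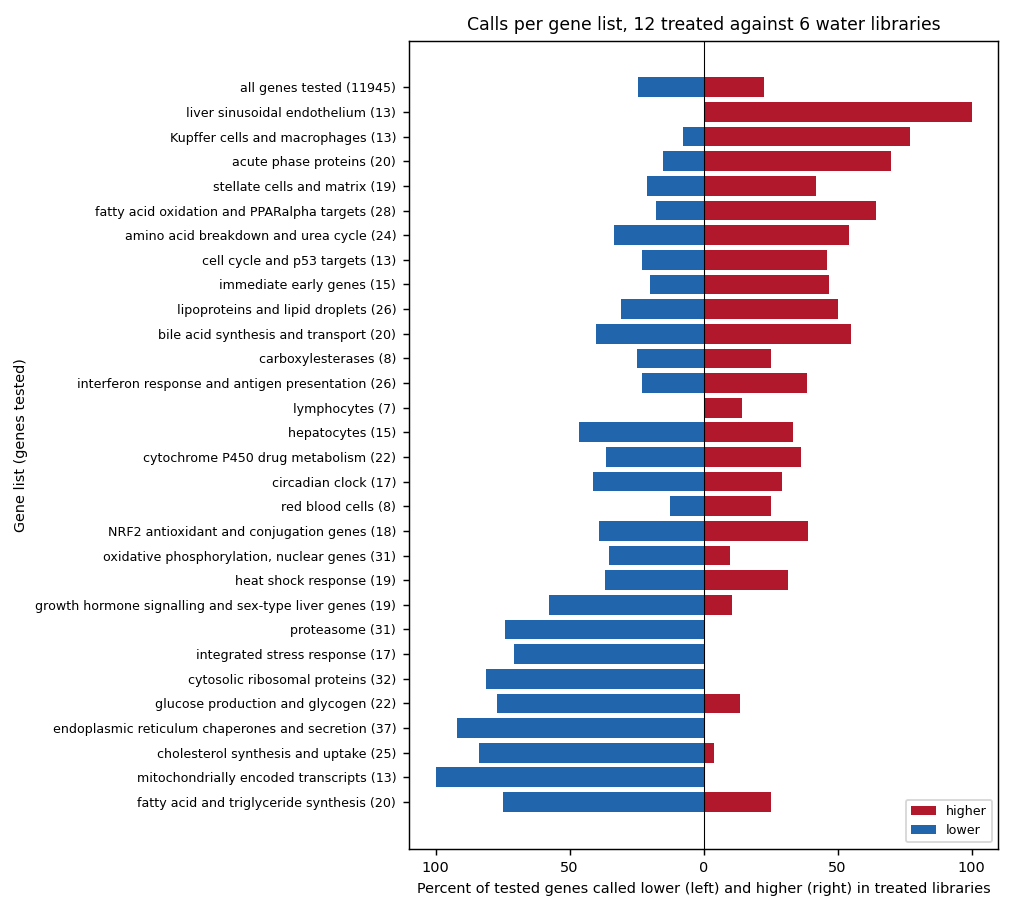
Bars give the percent of tested genes of each list called higher (red, right) or lower (blue, left) in treated libraries, with all 11945 genes in the top bar and the number of tested genes in brackets. Sinusoidal endothelium is red over its whole length with 13 of 13, while mitochondrially encoded transcripts are blue with 13 of 13; lists with fewer than 7 tested genes are not drawn.

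The 13 mitochondrially encoded transcripts were all lower (median -0.38), and all 13 were lower than in OC while 8 were lower than in NC. Of all genes tested, 24.5% were lower in the pooled comparison, 25% against OC and 27.5% against NC. The read shares below are of all genes placed on the mitochondrial chromosome. These genes took 4.59, 6.11 and 7.30% of reads in treated libraries and 6.20, 7.26 and 8.38% in water libraries. HD had the lowest share at 4.59 to 4.70% and OC the highest at 7.86 to 8.38%, whereas LD at 6.73 to 7.30% was above NC at 6.20 to 6.65%. The arms overlapped at every one of the 13 transcripts, so none is a gene set by treatment, and 6 were called lower with no group term.

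Markers of other cell types were read beside those of the endothelium. Of all genes tested, 22.6% were higher and 24.5% lower in the pooled comparison. The shares were 26.8% higher and 25% lower against OC, and 23.3% higher and 27.5% lower against NC. Kupffer cell and macrophage genes had 10 of 13 higher and 1 lower (median 0.28), but against OC 1 was higher and 6 lower, and 12 were higher than in NC. With no group term 3 were called higher. Their sum was 271, 311 and 424 FPKM in treated libraries, 328 to 337 FPKM in OC and 196.8 to 196.9 FPKM in NC, with PC (340.5 to 361 FPKM) and LD (414 to 424 FPKM) above OC, and MD (271 to 279 FPKM) and HD (276 to 281 FPKM) below it. Clec4f, the Kupffer cell lectin, had 54.1 to 80.5 FPKM in treated libraries, 56.1 to 59.4 FPKM in OC and 35.5 to 38.4 FPKM in NC. Stellate cell and matrix genes had 8 higher and 4 lower of 19, with a sum of 347 to 397 FPKM in treated libraries, 449 to 453 FPKM in OC and 292 to 294 FPKM in NC. None of the Kupffer or stellate genes met the rule for genes set by treatment.

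Of the remaining markers, 1 of 7 lymphocyte genes, both tested neutrophil genes and all 3 tested fat cell genes were higher. The pooled background is 22.6% of all genes higher and 24.5% lower. The lymphocyte and red blood cell counts do not stand out from it. Against OC 0 of the neutrophil genes (limma) and 2 of the fat cell genes were called. The summed levels were low, at 6.23 to 15.3 FPKM in treated libraries and 5.42 to 12.1 FPKM in water libraries for neutrophils. For fat cells the sums were 23.8 to 34.9 FPKM in treated libraries and 12.5 to 24.2 FPKM in water libraries. Red blood cell genes had 2 higher and 1 lower of 8, the 2 bile duct genes 1 in each direction, and the 2 exocrine pancreas genes 1 lower. Of the hepatocyte genes 5 were higher and 7 lower of 15, and among them Foxa1 alone met the rule for genes set by treatment. The medians of the hepatocyte, red blood cell and lymphocyte lists changed sign with the scaling used, so no direction is given for these either.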

How the data were processed

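Gene levels are FPKM values per library, computed and deposited by the authors. Per the submitters' processing notes the tools include CASAVA 1.7 and Bowtie 0.12.2, and the build listed is mm8, a mouse build, although the gene IDs are of rat. Rat build and strand setting: not given in the sources used here. Hence coordinates are as the file gives them. Reads recovered from the FPKM steps were whole for 100% of values (tolerance 0.001). Values were tested as log2(FPKM + 1) in limma 3.58.1 (R 4.3.3), in 1 fit of 6 group means with a mean-variance trend, with Benjamini-Hochberg adjustment over 11945 genes. The pooled contrast is the mean of PC, LD, MD and HD minus the mean of OC and NC. Named genes were the 10 largest rises and falls among protein coding set genes with a symbol. Genes with LOC, RGD, Gm, clone or Mir names were left out of this ranking. Also named were the 3 farthest from orlistat in each direction among the same genes, up to 3 members per list, and 6 genes known beforehand. The comparison and all gene lists were chosen with earlier results of these data known. The fit was tested on simulated data with noise within groups and a shift shared by all treated groups. These data held no further spread between groups, so they cannot show how the pooled test behaves where groups differ. Alternatives were other scalings, filters and pseudocounts, a replicate block, omitted libraries or groups, and coarser error units.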

Additional observations from a re-analysis of the deposited data

Results flagged for a closer look

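Of 24 named genes whose difference between plantain and orlistat was tested, 14 passed limma at an adjusted p of at most 0.05, where 28.6% of all genes tested did. Foxa1, Gapdh, Ehd3 and Sgk1 were named for this difference alone, and Socs2 and Stac3 for it as well as for their fall. Their values therefore describe the choice, which also raises the count of 14. The values are the mean of LD, MD and HD minus PC, on the log2(FPKM + 1) scale. Plantain was above orlistat in Socs2 (0.78), Foxa1 (0.39), Gapdh (0.38), Aurkaip1 (0.23) and Hist1h1c (0.19). Plantain was below orlistat in Stac3 (-0.88), Ehd3 (-0.38), Sgk1 (-0.37), Sec23b (-0.29), Hao2 (-0.28), Mrc1 (-0.19), Adgrf5 (-0.18), Kdr (-0.13) and Lyve1 (-0.10). Groups of 3 libraries were not tested for stray samples.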

How the results depend on the processing

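The error unit changed most. With no group term the fit called 1173 genes higher and 1287 lower (4008 at an unadjusted p under 0.05), and its list counts were 3 for Kupffer cells, 7 for acute phase, 8 for fatty acid oxidation, 22 for endoplasmic reticulum, 2 for integrated stress, 4 for ribosomal, 13 for proteasome, 6 for mitochondrially encoded, 8 for cholesterol, 7 for fatty acid synthesis, 7 for glucose and 2 for growth hormone genes. With group means as the units every count over all genes in the pooled comparison and every list count, endothelium included, was 0 (limma; 1359 genes at an unadjusted p under 0.05). TPM gave 1920 lower in the pooled comparison, 4825 higher and 1646 lower against OC, 1973 higher in OC than in NC, 1054 higher and 2669 lower with plantain than with orlistat, 120 set genes lower and 15 proteasome genes lower. Voom on recovered reads gave 1143 higher and 2432 lower for plantain against orlistat. Without LD there were 3671 genes that differed among treatments and 315 higher and 341 lower set genes. A stricter obesity limit, at 0.25 times the treatment difference, left 104 higher and 129 lower set genes, and 4 endothelial ones. Tff3 turned to 0.21 without PC (limma adjusted p = 0.17), against -0.28 with it. The cause of these shifts was not tested. 

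Leaving out each library in turn gave 2478 to 2705 higher and 2670 to 2929 lower genes, 2789 to 3204 and 2570 to 3010 against OC, 2388 to 2777 and 2798 to 3303 against NC, 2849 to 3208 and 3125 to 3435 for OC against NC, 1437 to 1811 and 1203 to 1663 for plantain against orlistat, 5080 to 5582 among treatments and 200 to 229 and 204 to 238 set genes. The list counts moved by at most 2 genes. The replicate numbers did not pair the libraries (correlation -0.09 to 0.07, and 2 of 18 libraries correlated best with their own number). The fit with the replicate block called 2677 higher and 2869 lower genes and changed no count by over 1.5 times. Among named genes under the other settings, 1724 values kept their direction and side of the threshold and 192 lost the call. Low read counts limit Gkn3 and Mir3557 most.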

Other observations

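The gene with the largest fall in the set had no symbol. This predicted gene (chromosome 2 from 194993274 to 195006915) had 0.882 to 0.944 FPKM in PC, 1.697 to 1.87 FPKM in LD, 0.260 to 0.337 FPKM in MD and 2.83 to 2.99 FPKM in HD, against 5.55 to 5.83 FPKM in OC and 6.92 to 7.21 FPKM in NC (-1.69 ± 0.03, limma adjusted p = 7.5e-16). Of 17 tested predicted genes whose description carries a retroviral domain term, 3 were higher and 9 lower (median -0.16), and 5 of the lower ones met the rule for genes set by treatment. Of the other 538 predicted genes 103 were higher and 145 lower (median -0.03), with 2 higher and 11 lower in the set. Over all 11945 genes tested, 2701 were higher and 2928 lower (median -0.01), with 199 higher and 204 lower in the set. The domain terms were chosen after the values were seen.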
